A study of Mus musculus with 4 samples.

Results

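The interleukin 6 family is a group of cytokines and receptor chains that was listed here as 10 genes, the ligands Il6, Il11, Lif and Osm and the receptor chains Il6ra, Il11ra1, Il6st, Lifr, Osmr and Il31ra. Probe sets were kept when the RefSeq accession in their identifier led to 1 of these symbols. That gave 5 genes with 7 probe sets (Il6, Il11, Il6st and Il31ra with 1 each and Il6ra with 3) of 1246 probe sets and 909 named genes in all. No probe set was matched to Lif, Osm, Il11ra1, Lifr or Osmr, which are not analysed here. The list was drawn up with earlier results of these arrays known, among them the differences between streptozotocin and control cells, so the members count as selected on those differences, which are given as a description and with no test.

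The samples were 4 expression arrays of wild-type mouse vascular smooth muscle cells (VSMC), the cells that give arteries their tone, grown in osteogenic medium to turn them bone-like. In 1 arm, of 2 arrays, the medium also held 0.4 mM streptozotocin, a nitrosourea with a glucosamine part that kills pancreatic beta cells. The control arm, also of 2 arrays, had the osteogenic medium without it. Both arms were run on 2 cell samples, here called the WTA culture (replicate 2) and the WT2 culture (replicate 1) after their names in the labels. Whether these came from separate animals is not stated, nor are the age and strain of the mice. P-values of streptozotocin against control therefore measure a spread between samples that may be technical. Every sample title also holds "3w", whose meaning the labels do not give. The design text asks how genes that build sugar chains respond to streptozotocin while VSMC calcify.

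Cytokines of this family share a signalling chain, Il6st (gp130), which passes the signal to JAK kinases and STAT transcription factors. IL-6 first binds Il6ra and IL-11 first binds Il11ra1, and either complex then joins gp130, while leukaemia inhibitory factor and oncostatin M use gp130 with Lifr or Osmr. Il31ra resembles gp130 but pairs with Osmr to bind interleukin 31. Cells that lack Il6ra can still answer IL-6 through its soluble receptor, and in the artery wall smooth muscle cells are a known source of IL-6 in inflammation.

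Values are log2 units made by RMA, so a difference of 1 is a doubling. The array medians lay between 5.83 and 5.87 and the lower quartiles between 4.39 and 4.40. Brightness differs between probe sets for reasons other than transcript number, so levels are compared between arrays and not between genes. Of 7 smooth muscle markers 0 had a named probe set, so the labelled cell type could not be checked here. Pearson correlations over all probe sets were lowest for the control array of WT2 with the WTA arrays, at 0.977 (streptozotocin) and 0.982 (control). The streptozotocin array of WT2 had 0.985 and 0.988 with the same arrays, and 0.988 with the control array of WT2. Between the arrays of WTA it was 0.997. In bulk samples such as these, fewer cells of a type and less RNA per cell cannot be told apart.

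Among the ligands, Il6, the cytokine of acute inflammation, varied most over the arrays. Its log2 value was 7.94 in WTA and 7.86 in WT2 with streptozotocin, against 7.56 in WTA and 6.16 in WT2 in control cells. Both streptozotocin arrays thus lay above both control arrays, and the control array of WT2 was the low one. Streptozotocin minus control was 0.38 in WTA (1.30-fold) and 1.70 in WT2 (3.25-fold). The streptozotocin arrays averaged 7.90 ± 0.05 and the control arrays 6.86 ± 0.99 (SD, n = 2 each), a difference of 1.04. Without the control array of WT2 the difference was 0.34, and without the control array of WTA it was 1.74. A difference of at least this size in either direction was found at 94 of 1246 probe sets in WTA and at 15 in WT2.

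The 250 bases before the start of Il6 are shown because this gene had the largest spread over the arrays of the 5 measured members, and those of Il31ra because it differed in the other direction. They are RefSeq sequences of build GRCm38.p6, Il6 from chr5:30012864-30013113 on the plus strand and Il31ra from chr13:112580663-112580912 on the minus strand, written 5′ to 3′. Capitals mark matches, on either strand, to 4 motifs: the kappa-B consensus (sites of NF-kappa-B), TTNNGCAA (like C/EBP sites), TGANTCA (like AP-1 sites) and TTCNNNGAA (like STAT sites).
Il6: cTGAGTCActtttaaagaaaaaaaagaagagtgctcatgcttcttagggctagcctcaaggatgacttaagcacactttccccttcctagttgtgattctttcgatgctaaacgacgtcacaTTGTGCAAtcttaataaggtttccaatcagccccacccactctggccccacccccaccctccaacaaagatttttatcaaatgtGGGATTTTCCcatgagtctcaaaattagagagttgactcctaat
Il31ra: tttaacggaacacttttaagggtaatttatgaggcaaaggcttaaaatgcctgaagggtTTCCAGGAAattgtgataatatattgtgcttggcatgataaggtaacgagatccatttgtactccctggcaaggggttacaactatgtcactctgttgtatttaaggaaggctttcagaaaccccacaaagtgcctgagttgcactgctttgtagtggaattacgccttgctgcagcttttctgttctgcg
In Il6 the first 3 motifs each had 1 match, and the matches did not overlap. The site GGGATTTTCC lay at bases -44 to -35 from the start, TTGTGCAA at -128 to -121 and TGAGTCA at -249 to -243. Il31ra had 1 match, the STAT-like TTCCAGGAA at -191 to -183. Over 32851 windows of the same length, 7.25% held the first motif, 9.56% the second, 6.75% the third and 7.02% the last. Windows of Il6ra and Il6st held none of them, and 1 of the windows of Il11's 2 starts held the AP-1-like motif. These are matches of letters, and no binding was measured.

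Il11, the ligand known for its part in bone turnover and fibrosis, was nearly flat. It had log2 values of 6.12 in WTA and 6.25 in WT2 with streptozotocin, against 6.09 in WTA and 6.28 in WT2 in control cells. The streptozotocin difference was 0.032 in WTA and -0.030 in WT2, and the arms overlapped. Differences of at least this size were found at 1046 and 1080 of the 1246 probe sets. Its own receptor gene had no named probe set, but Il11ra2, which mouse carries as a near-identical copy of Il11ra1, had 1. Its identifier carries the mark s, which can stand for probes shared between transcripts, so signal from the copies may not be separated. Its log2 value was 11.02 in WTA and 11.78 in WT2 with streptozotocin, against 11.35 in WTA and 11.96 in WT2 in control cells, which were differences of -0.32 and -0.18.

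Among the ligand-binding chains, Il6ra, which gives a cell its direct response to IL-6, differed little between arrays. The probe set without a mark for shared probes read 6.26 in WTA and 6.14 in WT2 with streptozotocin, against 6.15 in WTA and 6.19 in WT2 in control cells. The probe set marked x, a mark that can stand for probes shared with other transcripts, read 6.18 and 6.17 with streptozotocin in WTA and WT2, against 6.13 and 6.26 in control cells. The probe set marked s lay between 3.79 and 3.96 on all arrays, below the lower quartile, where background holds part of the value. Its readings were 3.88 and 3.79 with streptozotocin in WTA and WT2, against 3.82 and 3.96 in control cells. All 3 had a small positive difference in WTA (0.11, 0.054 and 0.057, in the order given). In WT2 they had a small negative one (-0.050, -0.085 and -0.18). Differences of at least these sizes were found at 46.7% to 72.7% of all probe sets in WTA and at 39.3% to 77.3% in WT2. The 3 probe sets read 1 gene on the same arrays, so their like signs are not separate support.

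Among the signalling chains, Il6st, the shared gp130, went opposite ways in the cultures. It read 12.42 in WTA and 11.92 in WT2 with streptozotocin, against 12.76 in WTA and 11.60 in WT2 in control cells. The difference was -0.34 in WTA and 0.33 in WT2, so the mean over the cultures was -0.0049. The arms' means were 12.17 ± 0.35 for streptozotocin and 12.18 ± 0.82 for control (SD, n = 2 each). Without the control array of WT2 the difference of the arms was -0.59, and without the control array of WTA it was 0.58. Leaving out 1 array unbalances the cultures, so these values also hold the culture difference.

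**Figure D1:**
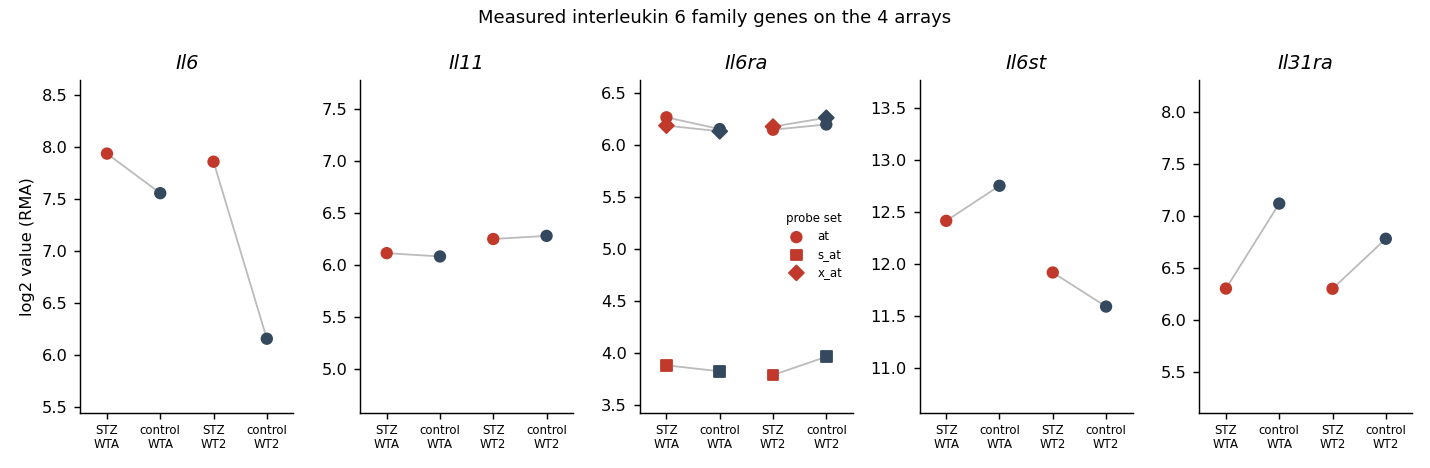
Log2 value (RMA) of the 7 probe sets of the 5 measured members on the 4 arrays, with streptozotocin (STZ) in red and control in dark blue, lines joining the arrays of a culture, and every axis spanning the same number of log2 units. Il6 was low on the control array of WT2 (6.16), Il31ra was alike on the 2 streptozotocin arrays (6.30 and 6.30), and Il6st was higher on both WTA arrays.

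Il31ra, the gp130-like chain of the interleukin 31 receptor, was lower with streptozotocin on both arrays. Its log2 value was 6.30 in WTA and 6.30 in WT2 with streptozotocin, against 7.12 in WTA and 6.78 in WT2 in control cells. The streptozotocin arrays thus stood at nearly the same value and the controls apart from each other. The difference was -0.82 in WTA (1.76-fold lower) and -0.48 in WT2 (1.40-fold lower). It stayed between -0.82 and -0.48 when 1 array was left out. With the streptozotocin arrays nearly equal, this range repeats the differences within the cultures and adds nothing to them. A difference of at least this size in either direction was found at 13 of 1246 probe sets in WTA and at 133 in WT2. Il31ra is the next protein-coding gene to Il6st on the mouse chromosome, and the neighbours did not share a pattern over the arrays.

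Set against the whole array, 1 of the 7 probe sets (Il6) was at least 1.5-fold higher with streptozotocin in WT2, where 4.82% of all probe sets were, and 0 were at least 1.5-fold lower, where 2.49% were. In WTA 0 were at least 1.5-fold higher, where 0.642% of all were, and 1 (Il31ra) was at least 1.5-fold lower, where 1.69% were. Both streptozotocin arrays lay above both control arrays for 1 of 7 (Il6), as for 10.8% of all probe sets, and below them for 1 (Il31ra), as for 13.8%. The median difference over the 7 was 0.05 in WTA and -0.05 in WT2, beside medians over all probe sets of 0.00 and -0.02. In limma's fit of streptozotocin against control, 0 of 1246 probe sets (0%) had an adjusted p under 0.05 and 25 an unadjusted p under 0.05. These counts rest on the contrast that was known when the genes were listed and are given as a description.

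**Figure D2:**
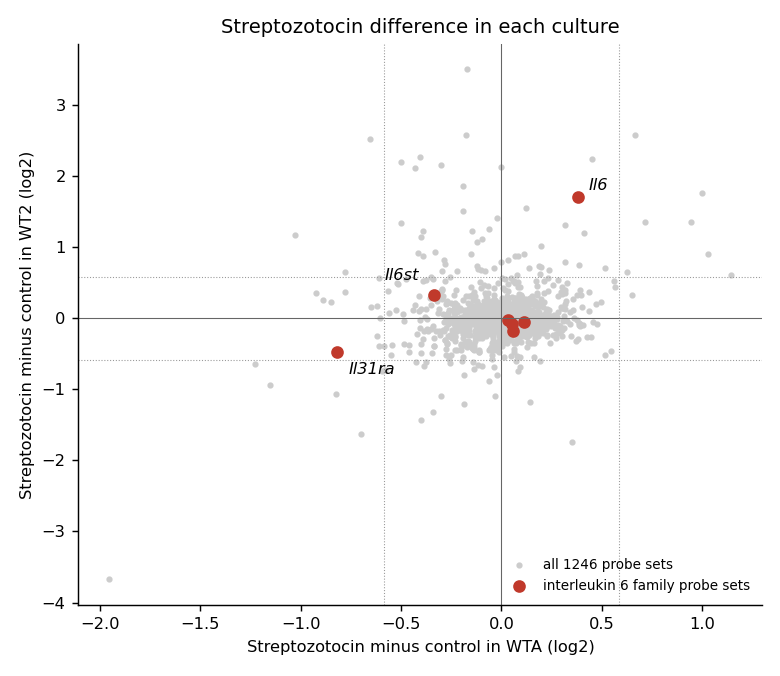
Streptozotocin minus control (log2) in WTA on the horizontal axis and in WT2 on the vertical axis, for all probe sets in grey and the 7 of the interleukin 6 family in red, with dotted lines at 1.5-fold. Il6 lies at 0.38 and 1.70, Il31ra at -0.82 and -0.48, Il6st at -0.34 and 0.33, and the other 4 lie near 0 in both cultures.

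The cultures were then compared with each other, in limma's fit with treatment and culture, a contrast that the listing of the genes did not name. Each culture is 1 cell sample with 1 array per arm, so the SD of a culture holds the difference of its arms. The fit leaves 1 residual degree of freedom, which holds how far the culture difference varied between the arms. Its SE and p-values therefore do not measure a spread between replicate cultures. Il6st averaged 12.59 ± 0.24 in WTA and 11.76 ± 0.23 in WT2 (SD, n = 2 each), a difference of 0.83 (SE 0.20, 1.78-fold). It was higher in WTA by 0.50 with streptozotocin and by 1.16 in control cells, and both WTA arrays lay above both WT2 arrays. This was short of the threshold of 0.05 (limma adjusted p = 0.160, unadjusted p = 0.0154). With 1 array left out and culture alone in the fit it ranged from 0.66 to 0.998.

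Il6 averaged 7.75 ± 0.27 in WTA and 7.01 ± 1.203 in WT2 (SD, n = 2 each), a difference of 0.74 (SE 0.35) that did not pass (limma adjusted p = 0.434). It was 0.078 with streptozotocin and 1.40 in control cells, so the cultures lay close together with streptozotocin and apart without it. Without the control array of WT2, in a fit with culture alone, the difference was -0.11. Without the streptozotocin array of WT2 it was 1.59. For Il11 WTA minus WT2 was small in both arms, -0.14 with streptozotocin and -0.20 in control cells (mean -0.17, SE 0.09, limma adjusted p = 0.505). Il31ra differed by 0.0019 with streptozotocin and 0.34 in control cells (mean 0.17, limma adjusted p = 0.618). For the 3 probe sets of Il6ra the mean culture difference lay between -0.06 and 0.04, with limma adjusted p-values from 0.835 to 0.953.

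Of the 7 probe sets 0 passed the test of the cultures, where 2.25% of all 1246 did (28, of which 1.44% of all were higher and 0.803% lower in WTA). Both WTA arrays lay above both WT2 arrays for 1 of 7 (Il6st), beside 21.3% of all probe sets, and below them for 1 (Il11), beside 27.7%.

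**Figure D3:**
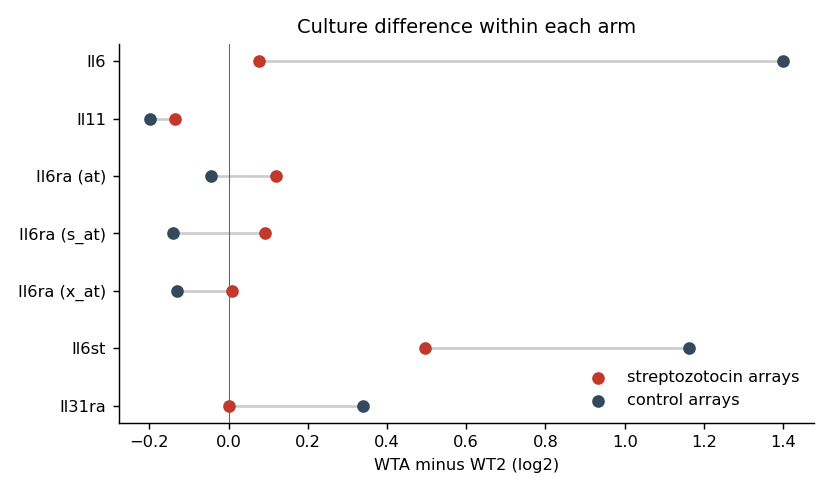
WTA minus WT2 (log2) for each of the 7 probe sets, with the difference between streptozotocin arrays in red and between control arrays in dark blue. For Il6 the points lie at 0.078 and 1.40 and for Il6st at 0.50 and 1.16, while the other probe sets lie between -0.20 and 0.34.

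The genes whose profile over the 4 arrays was most like that of Il6 were sought among 537 probe sets with a symbol and a mean above the median. Likeness was the distance between profiles centred on their own mean, where a flat profile lies 1.44 from Il6. The nearest was Ccl7, a chemokine that attracts monocytes, at 0.38. It read 10.60 in WTA and 10.76 in WT2 with streptozotocin, against 10.15 in WTA and 8.52 in WT2 in control cells. Csf2ra, the receptor chain that binds granulocyte-macrophage colony-stimulating factor, followed at 0.64. Angpt4, a ligand of the Tie2 receptor, lay at 0.65, as did Icam1, an adhesion molecule for leukocytes. These 4 had their lowest value on the control array of WT2. A flat profile lay 0.69 from Il31ra, and its nearest genes were the membrane-bound chemokine gene Cx3cl1 (0.34), the thymosin gene Tmsb10 (0.38), the glypican gene Gpc6 (0.38), the activin receptor gene Acvr2a (0.39) and the glypican gene Gpc3 (0.41). All of these were lower with streptozotocin in both cultures, as Il31ra was. With 4 arrays such a ranking is a description, since the arrays are shared by all genes.

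**Figure D4:**
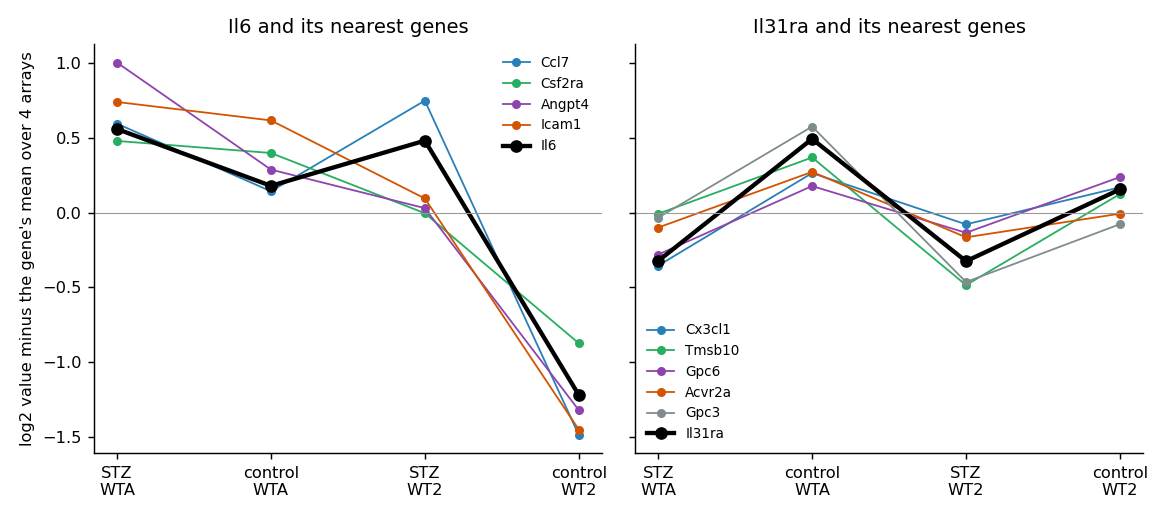
Log2 value minus the gene's own mean over the 4 arrays (vertical axis) on each array, for Il6 with 4 of its nearest genes (left) and Il31ra with its 5 nearest genes (right), streptozotocin (STZ) arrays left of the controls of the same culture. Il6 and the 4 genes are lowest on the control array of WT2, and Il31ra and its nearest genes are lower on the streptozotocin array of each culture.

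Other genes of the pathway were read from lists, with 1 probe set for each gene. Of 12 further ligands of the interleukin 6 and 12 families and their relatives 4 were measured. Of these 0 were 1.5-fold apart in either culture. Of all probe sets 0.642% were higher and 1.69% lower by this fold in WTA, and 4.82% and 2.49% in WT2. Il27, a ligand that signals through gp130, differed by 0.24 in WTA and -0.06 in WT2, and Csf3, granulocyte colony-stimulating factor, by -0.06 and 0.12. Il23a, the p19 chain of interleukin 23, differed by -0.20 and -0.18. Of 9 further receptor chains 7 were measured, again with 0 past 1.5-fold in either culture, beside the same shares of all probe sets. Il27ra, which pairs with gp130, went the way of Il6st, with -0.28 in WTA and 0.53 in WT2. Its log2 value was 9.04 in WTA and 9.08 in WT2 with streptozotocin, against 9.33 in WTA and 8.55 in WT2 in control cells. Il23r, of the interleukin 23 receptor, lay between 3.00 and 3.19 and differed by 0.08 and -0.20. Of the 7 chains 1 passed the test of the cultures, beside 2.25% of all probe sets. This was Csf3r, the receptor of granulocyte colony-stimulating factor, which was higher in WTA by 0.91 (limma adjusted p = 0.0474). Of the JAK, STAT and SOCS genes listed, 0 of 15 had a named probe set.

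Of 21 inducers of IL-6 and their receptors 15 were measured. In WTA 0 were at least 1.5-fold higher and 2 lower, Il33 and Il1rn (0.642% and 1.69% of all probe sets). In WT2 1 was higher and 0 lower (4.82% and 2.49% of all). Il33, an alarm cytokine of the interleukin 1 family, read 8.83 in WTA and 9.22 in WT2 with streptozotocin, against 9.49 in WTA and 6.70 in WT2 in control cells, so it was low on the same array as Il6 while its WTA difference was negative. Il1rn, the interleukin 1 receptor antagonist, differed by -0.89 in WTA and 0.26 in WT2, and the receptor gene Il1r1 by -0.52 and 0.50. The ligand genes Il1a and Il1b lay between 3.64 and 5.58 on all arrays and differed by at most 0.18 in size.

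Among 16 inflammatory genes often induced with IL-6, 11 were measured. In WT2 5 of them were at least 1.5-fold higher with streptozotocin, beside 4.82% of all probe sets, and in WTA 0 were, beside 0.642%. The median difference was 0.08 in WTA and 0.44 in WT2. The neutrophil attractants Cxcl1 and Cxcl5 differed by -0.43 and -0.19 in WTA and by 2.11 and 1.86 in WT2. Of the 11 genes 8 had their lowest value on the control array of WT2, beside 23.8% of all probe sets. This list, like the others, was drawn up with earlier results of these arrays known, so its counts are a description. For Cxcl5 the arrays other than the streptozotocin array of WT2 (8.73) lay together, at 6.67 with streptozotocin in WTA, 6.86 in the control of WTA and 6.86 in the control of WT2. Of 18 other class I cytokine receptors 14 were measured, 4 of them at least 1.5-fold higher in WT2 and 0 in WTA (4.82% and 0.642% of all probe sets). Il4ra, the interleukin 4 receptor chain, differed by -0.02 in WTA and 1.41 in WT2. Il13ra1 and Il13ra2, receptor chains of interleukin 13, differed by -0.39 and -0.17 in WTA and by 1.23 and 2.58 in WT2. In this list 7 of 14 genes were lowest on the control array of WT2, beside 23.8% of all probe sets. Il15ra alone, 1 of 14, passed the test of the cultures (WTA minus WT2 of -1.24, limma adjusted p = 0.0445), beside 2.25% of all.

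Markers of leukocytes, which also make IL-6, were read as well. Of 19 listed 9 were measured, and 0 were 1.5-fold apart in either culture. Of all probe sets 0.642% were higher and 1.69% lower by this fold in WTA, and 4.82% and 2.49% in WT2. Their summed linear signal was 456 in WTA and 372 in WT2 with streptozotocin, against 381 in WTA and 419 in WT2 in control cells. It was thus higher with streptozotocin in WTA and lower in WT2. Of the 9, 0 were lowest on the control array of WT2, beside 23.8% of all probe sets. Only Csf1r, a receptor of macrophages, had a mean above the median of probe sets, with differences of 0.45 in WTA and -0.26 in WT2. As the brightest of the 9 it weighed most in the sum, which is thus no measure of leukocyte content. The macrophage markers Adgre1 and Siglec1 differed by 0.29 and 0.08 in WTA and by -0.21 and -0.23 in WT2. Adgre1 lay between 2.79 and 3.16 on all arrays, below the lower quartile, where a change could be missed. The markers Cd33 (3.16 to 3.34), Mrc1 (3.87 to 4.09) and Clec4e (2.79 to 2.90) also lay below it on all arrays. Of 12 endothelial markers 6 were measured, with a summed linear signal of 2797 in WTA and 1922 in WT2 with streptozotocin, against 2609 in WTA and 1899 in WT2 in control cells. In WTA 1 of the 6 was at least 1.5-fold higher with streptozotocin, the selectin gene Selp (0.65), beside 0.642% of all probe sets. In WT2 1 was, beside 4.82% of all, the thrombin cofactor gene Thbd (1.01), which was lowest on the control array of WT2 as Il6 was. In both cultures 0 were at least 1.5-fold lower, beside 1.69% of all in WTA and 2.49% in WT2. Cd34, a sialomucin of endothelial and progenitor cells, was lower with streptozotocin in both cultures, with differences of -0.46 in WTA and -0.48 in WT2. Of the 6 markers 2 passed the test of the cultures, beside 2.25% of all probe sets. These were Esm1, a proteoglycan secreted by endothelium, with WTA minus WT2 of 4.93 (limma adjusted p = 0.00304), and Cd34, with -1.07 (limma adjusted p = 0.0445). The endothelial markers Pecam1 (3.793 to 3.997) and Sele (3.138 to 3.411) lay below the lower quartile on all arrays, where a change could be missed. As the brightest markers, Thbd, Cd34 and, in WTA, Esm1 weighed most in the endothelial sum, which is thus no measure of endothelial content. The part of leukocytes and endothelial cells in the Il6 and Il6st values was not tested. Of 11 osteogenic genes 1 was measured, Bmp2, a bone morphogenetic protein, with differences of -0.07 in WTA and 0.07 in WT2.

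**Figure D5:**
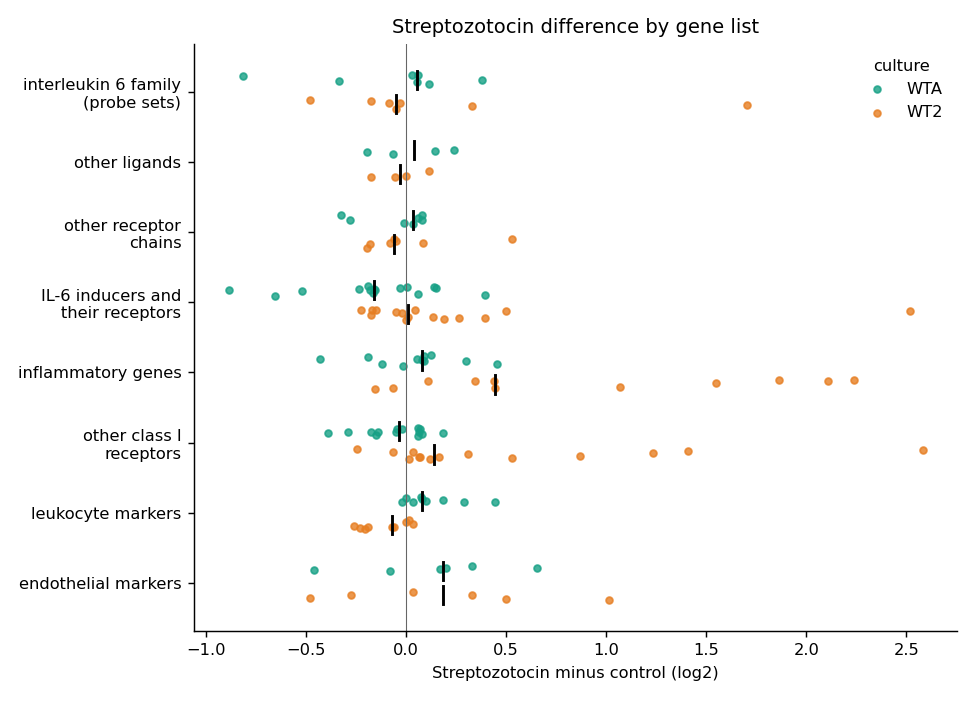
Streptozotocin minus control (log2, horizontal axis) for each measured gene of the lists and for the 7 probe sets of the interleukin 6 family, with WTA in green above WT2 in orange and black bars at the medians. The inflammatory genes have a median of 0.08 in WTA and 0.44 in WT2, and the leukocyte markers one of 0.08 in WTA and -0.07 in WT2.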

How the data were processed

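Trizol was used for total RNA, and cRNA was biotinylated following Affymetrix, per the labels' protocols. The values used are log2 signals for each probe set and array, as deposited, and come from RMA according to the submitters' processing notes, without a stated version. RMA usually equalises the arrays' distributions, which would hide a common shift of most genes. Names came from the accession in each identifier (version dropped) through a RefSeq table of assembly GRCm38.p6, used otherwise only for which genes adjoin. Of 1246 probe sets 963 gained 1 symbol.

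Differences were taken on the deposited log2 values. The fits (limma 3.58.1, R 4.3.3) were lmFit with eBayes, and p-values were adjusted by Benjamini-Hochberg over all 1246 probe sets at a threshold of 0.05. Streptozotocin was fitted against control without covariates, and WTA against WT2 with treatment as a covariate. The code was tested on simulated data. The replicate number stands for 1 named cell sample in both arms and so pairs the arrays, whose deviations from the group means correlated at 0.6003 over probe sets. Members and lists were chosen with earlier results of these data known. Named were all members, the 5 nearest profiles of Il6 and of Il31ra, 1 gene of which is not reported here, and up to 3 genes a list with the largest mean size of the difference over both cultures. Csf3r, Il15ra, Esm1, Pecam1, Sele, Cd33, Mrc1, Clec4e, Il1a and Il1b were named after their values were seen. Each listed gene was read from its brightest probe set. The number of arrays limits the precision.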

Additional observations from a re-analysis of the deposited data

Results flagged for a closer look

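Several genes had differences of opposite sign in the cultures, each with 1 array per arm, and the difference between the cultures was not tested. The share of all probe sets with opposite signs was not counted, and small differences can take either sign. For Il11, 83.9% of all probe sets differed by at least as much in WTA and 86.7% in WT2. Among the members these were Il6st (-0.34 in WTA and 0.33 in WT2), Il11 (0.032 and -0.030) and the 3 probe sets of Il6ra, with 0.11 and -0.050 for the one without a mark, 0.057 and -0.18 for the one marked s, and 0.054 and -0.085 for the one marked x.

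The same held for listed genes. In WTA and WT2 the differences were -0.66 and 2.52 for Il33, -0.89 and 0.26 for Il1rn, and -0.52 and 0.50 for Il1r1. They were -0.43 and 2.11 for Cxcl1 and -0.19 and 1.86 for Cxcl5. Receptor chains had -0.17 and 2.58 (Il13ra2), -0.39 and 1.23 (Il13ra1), -0.022 and 1.41 (Il4ra), -0.28 and 0.53 (Il27ra), and 0.079 and -0.20 (Il23r). For Il27 the values were 0.24 and -0.055, for Csf3 -0.065 and 0.12, for Csf1r 0.45 and -0.26, for Adgre1 0.29 and -0.21, for Siglec1 0.081 and -0.23, and for Bmp2 -0.072 and 0.072.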

How the results depend on the processing

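The count of probe sets called between streptozotocin and control was 0 under all alternatives run, limma's fit with the replicate block included, which pairs the arrays (0 called, 80 at an unadjusted p under 0.05, against 25 without it). The block leaves the members' differences as they are and changed no call. Between the cultures limma called 28 probe sets, 37 after median centring and 35 with an intensity trend, but 8 after quantile normalization, 2 of the 623 above the median and 13 with culture alone in the fit. With 1 array left out and culture alone it called 0 to 18: 12 without the WT2 control, 18 without the WT2 streptozotocin array and 0 without either array of WTA. That setting was added after seeing the data, since a fit with treatment and culture has no residual degrees of freedom on 3 arrays. The member probe sets stayed uncalled between the cultures under all alternatives run, which for Il6ra's dim probe set marked s leaves out the one above the median. At 1.2-fold, 1 of the 7 was higher and 2 lower in WTA (6.501% and 9.39% of all probe sets), and 2 were higher and 1 lower in WT2 (12.4% and 11.6% of all). At 2-fold 0 were lower in WTA (0.321% of all). After quantile normalization 1 was lower by 1.5-fold in WT2 (3.13% of all), Il31ra, at -0.66. Il6 kept its direction in both cultures under either scaling.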
